A study of Mus musculus with 12 samples.

Results

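The genes described here carry salt out of the tubule fluid in the loop of Henle and the distal tubule, or control that transport. They were 10 genes picked by symbol, Slc12a1, Slc12a3, Kcnj1, Umod, Cldn10, Cldn16, Cldn19, Ppp1r1a, Wnk1 and Wnk4, and all 10 had a row in the count table of 13124 genes. RNA was sequenced from 12 whole, saline-flushed kidneys of male C57BL/6 mice, 3 kidneys in each of 4 groups. Kidneys 7 to 9 came from mice given VR81, which binds G-CSFR, the receptor for a growth factor that mobilises neutrophils, and kidneys 10 to 12 from mice given BB5.1, which binds complement protein C5. Kidneys 4 to 6 came from mice given an isotype control antibody. Each antibody was injected 24 h before a warm ischaemia-reperfusion injury (IRI) on 1 side, where a period without blood flow is followed by its return, and these kidneys were taken 24 h after it. Kidneys 1 to 3 came from untreated mice 24 h after a sham operation, so isotype and sham differ in the antibody injection as well as in the injury. The labels state neither the age of the mice nor whether the kidney taken after IRI was the operated one.

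As background, the thick ascending limb of the loop takes up sodium, potassium and chloride together at its luminal face, lets potassium back into the fluid through a channel, and so builds the voltage that draws magnesium and calcium between its cells. The distal convoluted tubule that follows takes up sodium and chloride through a cotransporter of its own. WNK kinases sense chloride and potassium and, through the kinases SPAK and OSR1, switch both cotransporters on. The thick ascending limb uses much oxygen and lies in a part of the kidney with little of it, and it is among the segments exposed in ischaemia.

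Levels are CPM, read counts scaled to a common library size with edgeR's TMM factors, and kidneys held 13200930 to 16324215 counts. "Fell" and "rose" are used of genes whose p in edgeR's quasi-likelihood test, adjusted over all 13124 genes by the method of Benjamini and Hochberg (BH), was under 0.05. Kidneys 9 (anti-G-CSFR) and 11 (anti-C5) stood apart from the others of their groups. The summed level of 10 tubule injury genes, Havcr1, Lcn2 and Krt20 among them, was 12170 CPM in kidney 9 and 14670 CPM in kidney 11. It was 1681 to 2070 CPM in the 4 other antibody-treated kidneys, 34270 to 39130 CPM in isotype kidneys and 1496 to 2417 CPM in sham kidneys. Spp1 alone gave most of this sum in every kidney, with 10420 CPM in kidney 9 and 10760 CPM in kidney 11. Its level was 23150 to 28860 CPM in isotype kidneys and 1065 to 1903 CPM in sham kidneys. All 10 injury genes rose in isotype against sham. Isotype kidney 4 also differed from isotype kidneys 5 and 6. Its Havcr1 was at 5672 CPM, beside 3090 and 3032 CPM, and its Lcn2 at 1018 CPM, beside 2849 and 2773 CPM. Neutrophil genes, 8 in the list, summed to 2.16 to 2.91 CPM under anti-G-CSFR, to 8.25 and 13.6 CPM in kidneys 10 and 12, to 123 CPM in kidney 11, to 42.9 to 117 CPM in isotype kidneys and to 8.01 to 10.6 CPM in sham kidneys. Principal cell genes of the collecting duct summed to 369.9 to 450.3 CPM in isotype kidneys and 722 to 798 CPM in sham kidneys, with 7 of 8 called lower. Intercalated cell genes summed to 529 to 576 CPM in isotype kidneys and 916 to 974 CPM in sham kidneys, with 4 of 8 called lower and 1 higher. Car2 alone gave most of the intercalated sum in these kidneys, at 301.7 to 344.5 CPM in isotype and 510 to 550.9 CPM in sham kidneys. Endothelial genes summed to 474 to 675 CPM in isotype kidneys and 421 to 481 CPM in sham kidneys (3 of 7 called higher and 1 lower), and macrophage genes to 152 to 203 CPM in isotype kidneys and 99.0 to 142 CPM in sham kidneys (2 of 7 higher and 1 lower). Podocyte genes summed to 446 to 611 CPM in isotype kidneys and 468 to 496 CPM in sham kidneys (1 of 5 higher and 1 lower). Podxl alone gave most of the podocyte sum in these kidneys. Proximal tubule genes summed to 3174 to 4237 CPM in isotype kidneys and 16650 to 18520 CPM in sham kidneys. All 12 were called lower, with a median log2 change of −2.66 beside −1.60 for the 10 salt transport genes. Over all genes 30.7% were called lower and 32.1% higher in isotype against sham, 62.8% in all, beside 62.5% of the intercalated cell genes. The part of these shifts in the results on salt transport genes was not tested. The defining genes of the thick ascending limb (Slc12a1, Umod, Cldn16, Cldn19) and of the distal convoluted tubule (Slc12a3, Pvalb, Trpm6) had counts in every kidney.

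In isotype kidneys 9 of the 10 genes fell against sham, where 62.8% of all genes were called, 30.7% lower and 32.1% higher. All 10 lay below sham without overlap, beside 33.7% of all genes lower and 35.5% higher without overlap. Their log2 changes spanned −3.95 (Slc12a1) to −0.27 (Umod, not called), with a median of −1.60 beside 0.028 over all genes. Under anti-G-CSFR 9 of 10 rose against isotype, where 63.5% of all genes were called, 31.5% higher and 32% lower. The same 9 lay above isotype without overlap (33% of all genes higher and 34.1% lower without overlap). The 10 log2 changes had a median of 1.58 beside −0.022 over all genes. Under anti-C5 the same 9 rose against isotype and lay above it without overlap, where 60.3% of all genes were called, 30.5% higher and 29.8% lower, and 31.7% lay higher and 31% lower without overlap. The median log2 change was 1.58 beside −0.014 over all genes. All 3 comparisons share the isotype kidneys, so the matching counts are not independent of each other. In whole kidney tissue, fewer cells of a segment and less RNA per cell cannot be told apart.

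**Figure D1:**
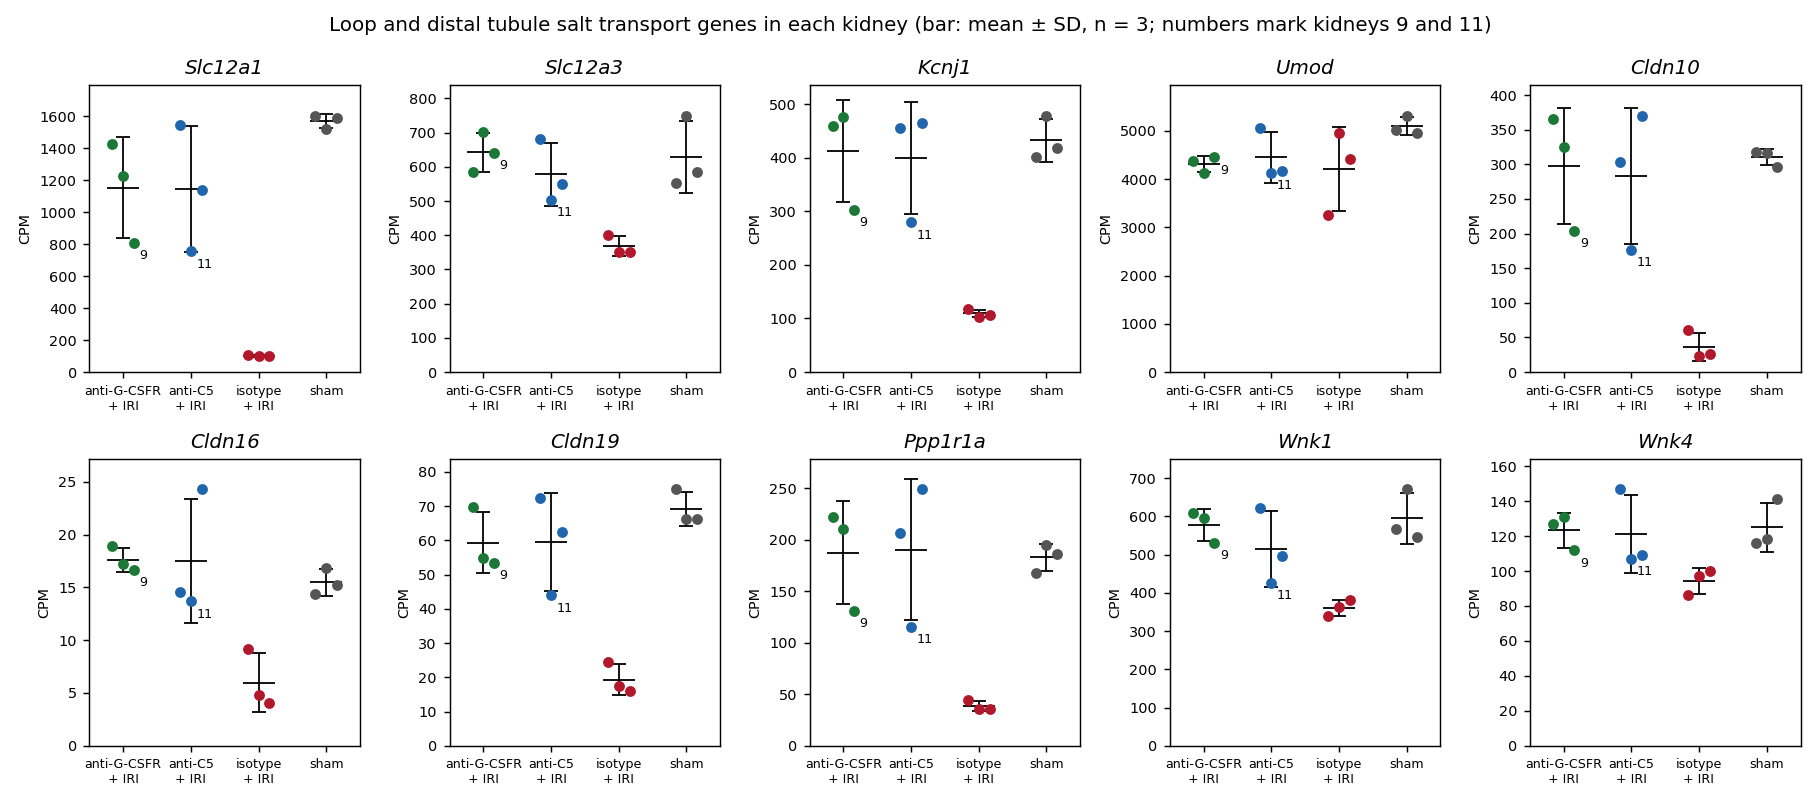
Level of each gene (CPM, linear axis from 0) in each kidney, 1 point a kidney, with the mean and SD of 3 kidneys per group. Isotype kidneys lie below all others for 9 of the genes, most closely for Wnk4, and for Umod they overlap the antibody-treated kidneys; kidneys 9 and 11 are numbered.

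Slc12a1 (Entrez 20495, GRCm38 chromosome 2, 125152505 to 125230002, plus strand) encodes NKCC2, the sodium-potassium-chloride cotransporter of the thick ascending limb and the target of loop diuretics. It stood at 1425, 1224 and 807 CPM under anti-G-CSFR, 1543, 753 and 1138 CPM under anti-C5, 106, 100.2 and 97.5 CPM in isotype kidneys and 1602, 1518 and 1587 CPM in sham kidneys. The 3 isotype kidneys differed little from each other and lay far below every other kidney, the 2 lowest of which were kidneys 9 and 11. The isotype mean was 6.45% of the sham mean, 15.5-fold lower, and the anti-G-CSFR and anti-C5 means were 73.4% and 72.9% of it. Log2 changes were −3.95 ± 0.273 for isotype against sham, 3.51 ± 0.268 for anti-G-CSFR against isotype and 3.50 ± 0.268 for anti-C5 against isotype (SE; edgeR BH-adjusted p = 1.99e-06, 4.65e-06 and 5.66e-06).

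Umod (Entrez 22242, GRCm38 chromosome 7, 119462711 to 119479282, minus strand) encodes uromodulin, the most abundant protein of normal urine, made by the same thick ascending limb cells. It stood at 4369, 4124 and 4450 CPM under anti-G-CSFR, 5062, 4130 and 4174 CPM under anti-C5, 3260, 4957 and 4425 CPM in isotype kidneys and 5013, 5315 and 4966 CPM in sham kidneys. The isotype kidneys were all below the sham kidneys and overlapped both antibody groups, with kidney 4 the lowest of all 12. No change of Umod passed the test. Its log2 changes were −0.27 ± 0.165 for isotype against sham, 0.034 ± 0.165 for anti-G-CSFR against isotype and 0.080 ± 0.165 for anti-C5 against isotype (SE; edgeR BH-adjusted p = 0.164, 0.869 and 0.687), and the 95% interval in isotype against sham was −0.63 to 0.085. With library totals as the only scaling the small differences from isotype turned negative, −0.18 for anti-G-CSFR and −0.10 for anti-C5. They also did so without kidney 4 (−0.12 and −0.074), and for anti-C5 without kidney 10 (−0.021).

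Set against each other within a kidney, where library scaling cancels, the pair moved apart. This ratio and that to Slc12a3 were chosen after the values were seen and carry no test. The ratio of Slc12a1 counts to Umod counts was 0.326, 0.297 and 0.181 in anti-G-CSFR kidneys 7 to 9, 0.305, 0.182 and 0.273 in anti-C5 kidneys 10 to 12, 0.0325, 0.0202 and 0.0220 in isotype kidneys 4 to 6 and 0.320, 0.286 and 0.320 in sham kidneys 1 to 3. Every isotype kidney was below every other kidney, and kidneys 9 and 11 were the next lowest.

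**Figure D2:**
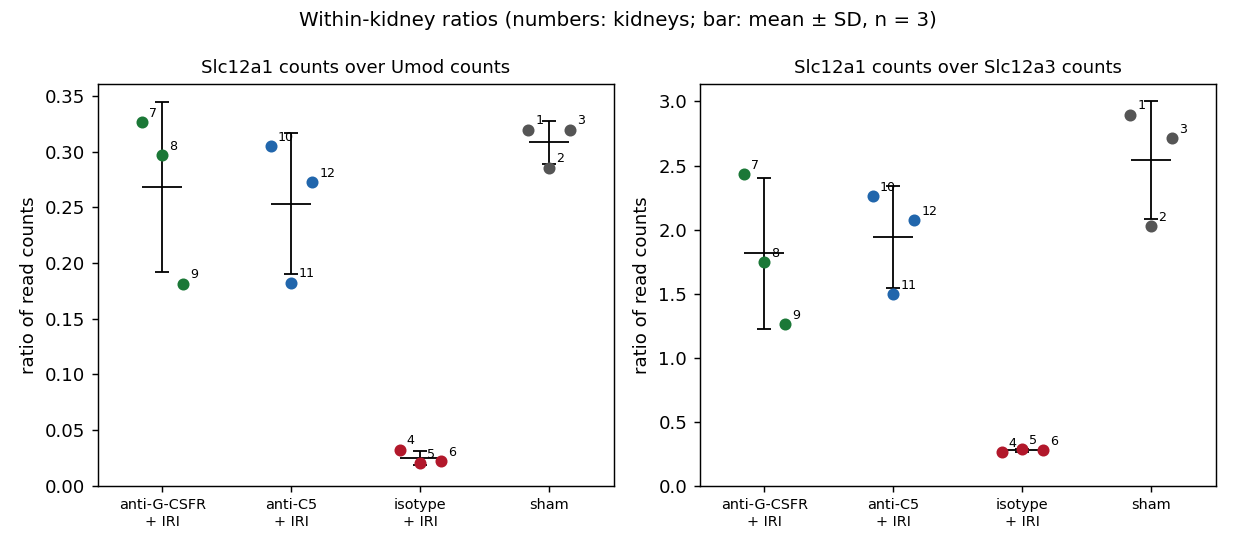
Ratio of read counts of Slc12a1 to Umod (left) and to Slc12a3 (right) within each kidney, with kidney numbers and the mean and SD of 3 kidneys per group. The isotype ratios, 0.0202 to 0.0325 and 0.264 to 0.286, lie below those of all other kidneys.

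The sequences upstream of some of these genes are shown, and whether they bear on the changes was not tested. Each is the 250 bases before the transcription start listed by RefSeq, on GRCm38.p6, 5′ to 3′ along the gene, and sequences were matched for 9 of the 10 genes (all but Ppp1r1a). Capitals mark the CCAAT box (CCAAT), the TATA box (TATAAA) and the GC box (GGGCGG), found on either strand; a match is not a binding site. Slc12a1 fell most, Umod was not called, Slc12a3 serves the distal convoluted tubule, and Wnk1 was among the called genes that changed least.
Slc12a1 (chr2:125152350-125152599, plus strand): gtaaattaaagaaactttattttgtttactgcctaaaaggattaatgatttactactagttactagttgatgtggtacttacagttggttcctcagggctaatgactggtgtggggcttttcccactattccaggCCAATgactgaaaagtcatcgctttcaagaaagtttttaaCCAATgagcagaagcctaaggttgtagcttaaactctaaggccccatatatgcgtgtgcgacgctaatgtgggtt
Umod (chr7:119479263-119479512, minus strand): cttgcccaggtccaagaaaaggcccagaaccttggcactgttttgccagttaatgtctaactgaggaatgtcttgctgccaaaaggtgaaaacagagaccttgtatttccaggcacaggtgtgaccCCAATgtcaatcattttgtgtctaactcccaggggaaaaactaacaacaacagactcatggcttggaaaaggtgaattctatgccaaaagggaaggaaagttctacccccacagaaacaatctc
Slc12a3 (chr8:94328958-94329207, plus strand): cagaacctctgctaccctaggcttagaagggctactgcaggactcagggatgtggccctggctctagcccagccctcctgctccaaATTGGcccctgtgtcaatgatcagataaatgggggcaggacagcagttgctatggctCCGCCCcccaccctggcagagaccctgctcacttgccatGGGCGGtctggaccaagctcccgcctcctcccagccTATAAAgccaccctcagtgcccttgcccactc
Wnk1 (chr6:120038656-120038905, minus strand): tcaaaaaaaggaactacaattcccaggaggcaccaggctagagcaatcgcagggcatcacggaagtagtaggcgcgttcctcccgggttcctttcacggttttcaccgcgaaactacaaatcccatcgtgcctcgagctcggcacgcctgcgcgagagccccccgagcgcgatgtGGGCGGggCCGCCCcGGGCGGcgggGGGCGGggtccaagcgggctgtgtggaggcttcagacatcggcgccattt

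In these windows Slc12a1 held CCAAT at 115 and 75 bases before the start. Umod held CCAAT at 124 bases. Slc12a3 held TATAAA at 32 bases, GC boxes at 107 and 68 bases and CCAAT on the reverse strand at 164 bases. Wnk1 held 4 GC boxes, at 75, 67, 60 and 50 bases. Distances are to the first base of the match on the printed strand. The starts of RefSeq and GENCODE differ for some genes. By GENCODE, Slc12a1 begins at 125152505, so its CCAAT at 75 bases lies inside the gene. The whole Kcnj1 window also lies inside its GENCODE gene. Of 32851 RefSeq windows of the same length, 33.8% held CCAAT, 12.4% TATAAA and 32.7% GGGCGG. Counted as CG pairs per window, Umod had 0, Kcnj1 2, Slc12a3 3, both Cldn19 starts 3, Slc12a1 4 and Cldn16 5, while Wnk4 had 17 and Wnk1 26, beside a median of 6 over all windows. The 2 starts of Cldn10 had 4 and 22. Umod, which was not called, and Slc12a1, which fell most, both had few CG pairs, and the kinase genes with many changed by −0.72 and −0.40 on the log2 scale (isotype against sham, Wnk1 and Wnk4). In the same comparison Cldn10, with 22 at 1 of its starts, changed by −3.08, and Slc12a3, with 3, by −0.77. A link between CG pairs and change was not tested.

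Kcnj1 (Entrez 56379, GRCm38 chromosome 9, 32372493 to 32399197, plus strand) encodes ROMK, the channel that returns potassium to the fluid so that NKCC2 can go on working. It stood at 460.2, 475 and 303 CPM under anti-G-CSFR, 456, 279.5 and 465 CPM under anti-C5, 117, 104 and 107 CPM in isotype kidneys and 401, 479 and 417 CPM in sham kidneys. The isotype kidneys were lowest without overlap, and kidneys 9 and 11 again lay between them and the rest. Log2 changes were −1.98 ± 0.213 for isotype against sham, 1.92 ± 0.213 for anti-G-CSFR against isotype and 1.87 ± 0.213 for anti-C5 against isotype (SE; edgeR BH-adjusted p = 1.70e-05, 2.55e-05 and 3.76e-05).

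Slc12a3 (Entrez 20497, GRCm38 chromosome 8, 94329201 to 94366214, plus strand) encodes NCC, the sodium-chloride cotransporter of the distal convoluted tubule and the target of thiazides. It stood at 586, 701 and 640.3 CPM under anti-G-CSFR, 682, 504 and 549 CPM under anti-C5, 402, 350.2 and 352 CPM in isotype kidneys and 553, 749.6 and 586 CPM in sham kidneys. Isotype kidneys were below all others, and kidney 9 was within the range of the other anti-G-CSFR kidneys for this gene. The fall was 1.71-fold, against 15.5-fold for Slc12a1. Log2 changes were −0.77 ± 0.154 for isotype against sham, 0.80 ± 0.154 for anti-G-CSFR against isotype and 0.65 ± 0.154 for anti-C5 against isotype (SE; edgeR BH-adjusted p = 0.00103, 8.28e-04 and 0.0034). The ratio of Slc12a1 to Slc12a3 counts was 2.43, 1.75 and 1.26 in anti-G-CSFR kidneys, 2.26, 1.50 and 2.07 in anti-C5 kidneys, 0.264, 0.286 and 0.277 in isotype kidneys and 2.90, 2.02 and 2.71 in sham kidneys, so the order of these 2 cotransporters by counts was reversed in isotype kidneys alone.

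Claudins seal the space between epithelial cells or make it leak chosen ions. Cldn10 (Entrez 58187, GRCm38 chromosome 14, 118787908 to 118875489, plus strand) has a form that makes a sodium-selective path in the thick ascending limb and another found in the proximal tubule, and 1 row counted both. It stood at 365, 325 and 204 CPM under anti-G-CSFR, 304, 176 and 370.3 CPM under anti-C5, 60.0, 23.8 and 26.3 CPM in isotype kidneys and 318, 317 and 297 CPM in sham kidneys. Kidney 4 held more than the other 2 isotype kidneys and still less than any other kidney. Log2 changes were −3.08 ± 0.379 for isotype against sham, 3.02 ± 0.378 for anti-G-CSFR against isotype and 2.95 ± 0.377 for anti-C5 against isotype (SE; edgeR BH-adjusted p = 4.02e-05, 5.08e-05 and 7.57e-05). Proximal tubule genes fell too, 12 of 12 beside 30.7% of all genes, with a summed level of 3174 to 4237 CPM in isotype kidneys and 16650 to 18520 CPM in sham kidneys, so the row does not say which form fell.

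Cldn16 (Entrez 114141, chromosome 16) and Cldn19 (Entrez 242653, chromosome 4) encode the pair of claudins that carry magnesium and calcium between thick ascending limb cells, and loss of either in people causes magnesium wasting. Cldn16 was the lowest of the 10 genes, at 18.9, 17.2 and 16.6 CPM under anti-G-CSFR, 14.6, 13.7 and 24.3 CPM under anti-C5, 9.17, 4.79 and 4.01 CPM in isotype kidneys and 14.3, 16.9 and 15.2 CPM in sham kidneys. Kidney 12 was the highest of all, and isotype kidneys were the lowest. Its log2 changes were −1.36 ± 0.284 for isotype against sham, 1.54 ± 0.285 for anti-G-CSFR against isotype and 1.54 ± 0.285 for anti-C5 against isotype (SE; edgeR BH-adjusted p = 0.00142, 6.29e-04 and 7.65e-04). Cldn19 ranged over 53.5 to 69.7 CPM under anti-G-CSFR, 43.9 to 72.3 CPM under anti-C5, 16.1 to 24.4 CPM in isotype kidneys and 66.2 to 74.9 CPM in sham kidneys. Its isotype mean was 27.9% of the sham mean, and its log2 changes were −1.84 ± 0.200 for isotype against sham, 1.62 ± 0.199 for anti-G-CSFR against isotype and 1.63 ± 0.199 for anti-C5 against isotype (SE; edgeR BH-adjusted p = 1.78e-05, 4.55e-05 and 5.71e-05). The antisense gene Gm12927, which overlaps 1562 bases of Cldn19, has a row of its own in the table.

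The other 3 genes act on the transporters. Ppp1r1a (Entrez 58200, chromosome 15) encodes inhibitor-1 of protein phosphatase 1, which in mouse kidney favours the phosphorylated, active form of the cotransporters. It ranged over 131 to 222 CPM under anti-G-CSFR, 115 to 249 CPM under anti-C5, 35.7 to 44.2 CPM in isotype kidneys and 168 to 194 CPM in sham kidneys, and the lowest antibody-treated kidneys were 9 and 11. Its log2 changes were −2.24 ± 0.265 for isotype against sham, 2.28 ± 0.265 for anti-G-CSFR against isotype and 2.30 ± 0.266 for anti-C5 against isotype (SE; edgeR BH-adjusted p = 3.10e-05, 3.37e-05 and 4.03e-05). Wnk1 (Entrez 232341, chromosome 6) encodes a kinase made in most tissues, with a short form without kinase activity in the distal convoluted tubule, and its row counted both. It ranged over 530 to 608 CPM under anti-G-CSFR, 426 to 622 CPM under anti-C5, 338 to 380 CPM in isotype kidneys and 547 to 670.2 CPM in sham kidneys. Its log2 changes were −0.72 ± 0.147 for isotype against sham, 0.68 ± 0.147 for anti-G-CSFR against isotype and 0.52 ± 0.146 for anti-C5 against isotype (SE; edgeR BH-adjusted p = 0.00116, 0.0017 and 0.0097). With library totals as the only scaling the anti-C5 change was 0.33 (edgeR BH-adjusted p = 0.05), no longer called.

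Wnk4 (Entrez 69847, chromosome 11) encodes the kinase that chiefly sets NCC activity. It stood at 127, 131 and 112 CPM under anti-G-CSFR, 147, 107 and 109 CPM under anti-C5, 86.1, 97.1 and 100.3 CPM in isotype kidneys and 116, 118 and 141 CPM in sham kidneys, so the isotype kidneys lay below all others, though close to them, and the other groups overlapped. Its log2 changes were the smallest of the called ones, −0.40 ± 0.135 for isotype against sham, 0.38 ± 0.135 for anti-G-CSFR against isotype and 0.36 ± 0.135 for anti-C5 against isotype (SE; edgeR BH-adjusted p = 0.0204, 0.0256 and 0.0374). These calls were not firm. The fall in isotype kidneys lost the call without kidney 3 or 4 (edgeR BH-adjusted p = 0.0925 and 0.0604). The rise under anti-G-CSFR lost it without kidney 4, 5, 7 or 8 (0.0739, 0.0505, 0.0698 and 0.0851), and that under anti-C5 without kidney 4, 5, 6 or 10 (0.101, 0.0693, 0.0518 and 0.185) or with only these 6 kidneys in the fit (0.103). With library totals alone all 3 were lost, at −0.20, 0.17 and 0.18 in the same order (edgeR BH-adjusted p = 0.191, 0.269 and 0.263).

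**Figure D3:**
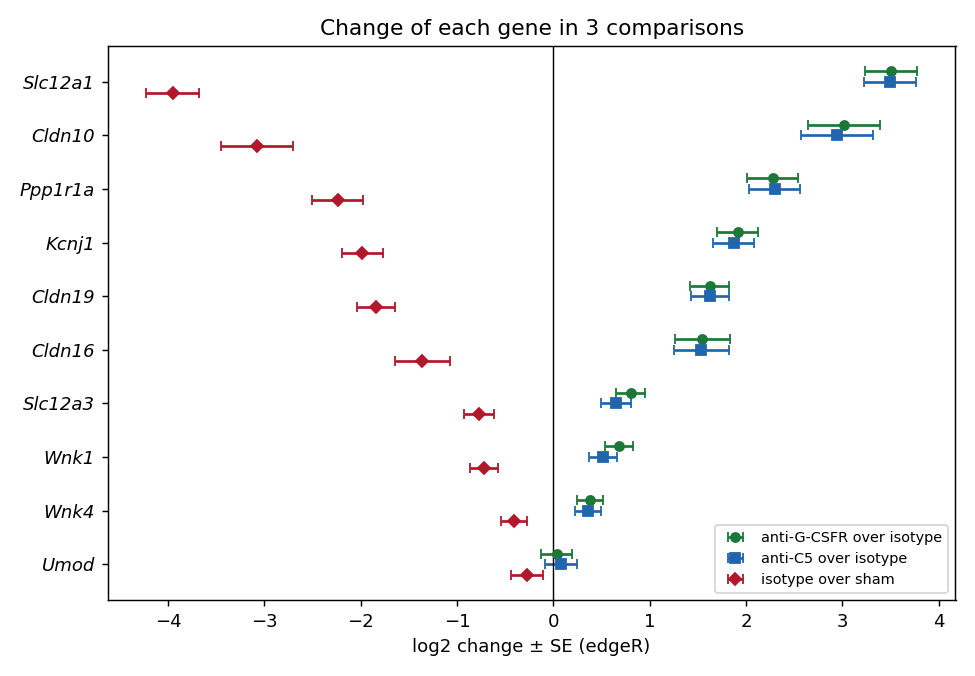
Log2 change of each gene with its SE (edgeR, 12 kidneys in 1 fit) for anti-G-CSFR over isotype, anti-C5 over isotype and isotype over sham, ordered by the last. Slc12a1 at −3.95 and Cldn10 at −3.08 lie farthest to the left, and Umod lies nearest to 0 in all 3; the comparisons share the isotype kidneys.

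Per kilobase of annotated exon (GENCODE vM21), levels can be set side by side between genes. In sham kidneys Umod led with a mean of 1845 CPM per kb, followed by Slc12a1 at 272. Ppp1r1a (139.8), Kcnj1 (129.7) and Cldn10 (119.8) came next with values that neighbours shared within their spread, then Slc12a3 (56.6), Wnk4 (30.1), Wnk1 (26.0), Cldn19 (16.2) and Cldn16 (13.2), all in CPM per kb. Wnk4 and Wnk1 overlapped over the kidneys, whereas Cldn19 lay above Cldn16 in all 3. Within each sham kidney Ppp1r1a was above Kcnj1 and Cldn10, although the ranges of Ppp1r1a and Kcnj1 overlapped. In isotype kidneys Umod still led, at 1525 CPM per kb. Slc12a3 (33.1), Kcnj1 (32.8) and Ppp1r1a (29.6) followed with ranges that overlapped, though within each isotype kidney Ppp1r1a was below the other 2. Slc12a1 was sixth at 17.6 CPM per kb, below Wnk4 in all 3 kidneys. Under anti-G-CSFR and anti-C5 the first 8 genes had the same order as in sham kidneys, with Slc12a1 second at 199.9 and 199 CPM per kb, and Cldn16 and Cldn19 overlapped. The ranges of Slc12a1 and Ppp1r1a over the kidneys overlapped there too, but within each antibody-treated kidney Slc12a1 was above Ppp1r1a. Exon length includes every annotated transcript, which lowers the value of genes with many, such as Wnk1.

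Against sham, none of the 10 genes was called under either antibody, and no gene of the table was (0% called; edgeR). At an unadjusted p below 0.05 778 of 13124 genes passed for anti-G-CSFR and 1487 for anti-C5, with none of the 10 in either. DESeq2 called 1 and 112 genes of the table and limma-voom 0 and 0, again with none of the 10. Slc12a1 came closest, with log2 changes of −0.45 (95% interval −0.98 to 0.084) for anti-G-CSFR and −0.46 (−0.98 to 0.074) for anti-C5. All 3 anti-G-CSFR kidneys were below the sham range for this gene, as they were for Umod, and the 8 other genes overlapped. Among all genes, 8.9% lay lower and 9.47% higher without overlap. Under anti-C5 all 10 genes overlapped the sham range, beside 8.59% of all genes lower and 9.36% higher without overlap. Without kidneys 9 and 11 the changes of Slc12a1 were −0.23 and −0.22. Among the other genes these intervals were widest for Cldn10, −0.82 to 0.70 and −0.89 to 0.63, and narrowest for Wnk4, −0.31 to 0.27 and −0.34 to 0.25. Changes inside them remain compatible with these data of 3 kidneys a group. They are not limits of detection, because calls were made after adjustment over all genes.

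Kidneys 9 and 11 were the 2 lowest antibody-treated kidneys for 5 of the 10 genes, Slc12a1, Kcnj1, Cldn10, Cldn19 and Ppp1r1a. The share of all genes with these 2 kidneys lowest was not counted. As a percentage of each gene's sham mean, the 10 genes of kidney 9 had a median of 82.3% and ran from 51.4% (Slc12a1) to 108% (Cldn16), and those of kidney 11 had a median of 68.2% and ran from 48.0% (Slc12a1) to 88.3% (Cldn16). The medians were 102%, 105%, 105% and 88.7% in kidneys 7, 8, 10 and 12, and 46.1%, 28.0% and 25.4% in isotype kidneys 4, 5 and 6. Cldn10, Ppp1r1a and Kcnj1 were at 65.7%, 71.5% and 70.0% in kidney 9 and 56.8%, 63.2% and 64.6% in kidney 11, whereas Slc12a3 was at 102% and 80.0%. With both left out, all 9 genes called against isotype were still called under each antibody, Slc12a1 at 3.73 and 3.74.

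**Figure D4:**
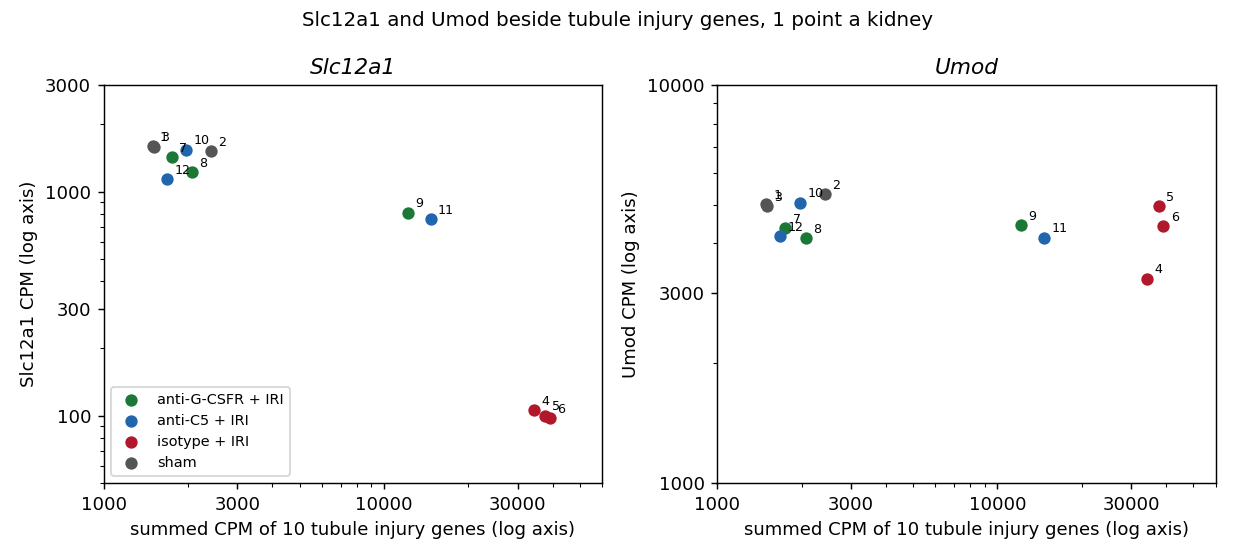
Level of Slc12a1 (left) and Umod (right) in CPM against the summed CPM of 10 tubule injury genes, both axes logarithmic, 1 numbered point a kidney. Spp1 makes up most of that sum in every kidney. Kidneys 9 and 11 lie between the isotype kidneys and the rest in injury genes and in Slc12a1, at 807 and 753 CPM, and among the other kidneys for Umod.

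Between the 2 antibodies (anti-G-CSFR against anti-C5) none of the 10 genes was called, and no gene of the table (0% called; edgeR; 207 genes at an unadjusted p below 0.05, DESeq2 2, limma-voom 0). Log2 differences ran from −0.046 (Umod) to 0.17 (Wnk1). The 95% interval was −0.52 to 0.54 for Slc12a1, −0.40 to 0.49 for Kcnj1, −0.18 to 0.49 for Slc12a3 and −0.69 to 0.83 for Cldn10, so differences inside these intervals remain compatible with the data. All 10 genes overlapped between these groups, beside 1.9% of all genes higher and 2.38% lower without overlap.

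Other transport genes of the loop and distal tubule mostly moved the same way. Of 24 described, 20 fell and 2 rose in isotype against sham, beside 30.7% of all genes lower and 32.1% higher (median log2 change −1.47). Against isotype, 19 rose and 2 fell under anti-G-CSFR, beside 31.5% and 32% of all genes (median 1.38) and 20 rose and 1 fell under anti-C5, beside 30.5% and 29.8% (median 1.22). None was called under either antibody against sham, or between the antibodies, by edgeR. DESeq2 called 3 lower under anti-C5 against sham, among 112 of all 13124 genes. Without overlap, 7 of 24 lay below sham and 0 above under anti-G-CSFR, beside 8.9% and 9.47% of all genes (median −0.14). Under anti-C5, 5 lay below and 1 above, beside 8.59% and 9.36% (median −0.23). Bsnd, the barttin subunit of basolateral chloride channels, fell in isotype kidneys to 19.6, 17.0 and 15.0 CPM, against 75.9, 78.6 and 89.6 CPM in sham kidneys, a log2 change of −2.24 ± 0.187 (SE).

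Egf, the growth factor precursor made in these segments, stood at 1277, 1085 and 690.5 CPM under anti-G-CSFR, 1546, 536 and 1031 CPM under anti-C5, 29.0, 90.5 and 68.9 CPM in isotype kidneys and 1584, 1817 and 1576 CPM in sham kidneys, with kidneys 9 and 11 again lowest of the antibody-treated ones. Pvalb, the calcium-binding protein parvalbumin of the early distal convoluted tubule, stood at 0.333, 0.430 and 0.701 CPM in isotype kidneys (6, 7 and 11 counts) and 10.9, 26.6 and 20.0 CPM in sham kidneys. The log2 changes of Egf and Pvalb in isotype against sham were −4.72 ± 0.479 and −5.29 ± 0.609 (SE; edgeR BH-adjusted p = 1.18e-05 and 2.59e-05). In the same segment the magnesium channel gene Trpm6 was at 11.1, 18.9 and 19.9 CPM in isotype kidneys and 20.1, 29.1 and 19.9 CPM in sham kidneys and was not called (−0.47 ± 0.271, edgeR BH-adjusted p = 0.146). Calb1, calbindin of the late distal tubule, fell by 1.36 on the log2 scale in isotype kidneys. It rose under both antibodies, and the rise under anti-C5 was lost without kidney 10 or 12, or with only these 6 kidneys in the fit (edgeR BH-adjusted p = 0.0954, 0.0556 and 0.0667). The list members with the smallest p were Sfrp1, a secreted Wnt inhibitor (−3.06 ± 0.192), the basolateral potassium channel gene Kcnj16 (−1.90 ± 0.127), the calcium-sensing receptor gene Casr (−2.02 ± 0.139), the sodium-proton exchanger gene Slc9a3, also made in the proximal tubule (−1.45 ± 0.116) and the sodium-calcium exchanger gene Slc8a1 (−2.21 ± 0.181).

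The 2 that rose in isotype kidneys were both claudins, and they are named after their values were seen. Cldn3, a sealing claudin, stood at 21.1, 24.7 and 26.2 CPM in isotype kidneys and 6.63, 9.02 and 9.18 CPM in sham kidneys (1.53 ± 0.165 on the log2 scale). Cldn14, which in mouse blocks the path made by Cldn16 and Cldn19, had 3, 0 and 5 counts in anti-G-CSFR kidneys, 1, 34 and 1 in anti-C5 kidneys, 70, 32 and 32 in isotype kidneys and 0, 1 and 0 in sham kidneys. Of the antibody-treated kidneys, kidney 11 alone reached the isotype level. Against isotype it was called lower under anti-G-CSFR and was not called under anti-C5 (edgeR BH-adjusted p = 0.00883 and 0.118). The anti-C5 change was called without kidney 11 (3.12e-04) and by limma-voom with all kidneys (0.0125).

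**Figure D5:**
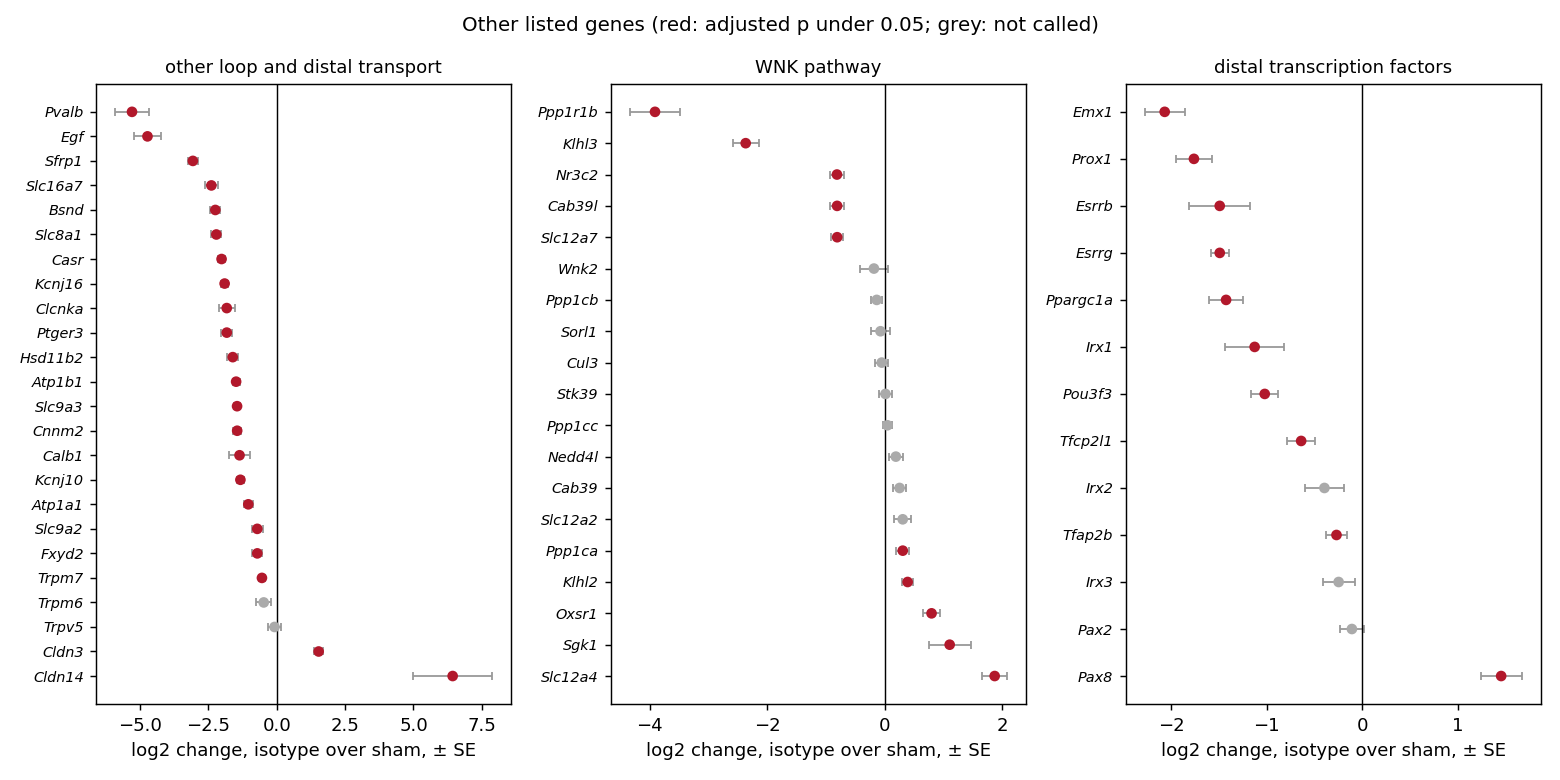
Log2 change with its SE in isotype over sham for 24 other loop and distal transport genes, 19 genes of the WNK pathway and 13 distal transcription factors; red points passed the test and grey ones did not. Transport genes lie mostly left of 0, while the WNK pathway lies on both sides; the value of Cldn14 rests on 1 count in sham kidneys.

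Genes of the WNK pathway were called in both directions. In the fit with TMM factors and all kidneys, their share called was no higher than that of all genes. Of 19 described, 5 fell and 5 rose in isotype against sham, beside 30.7% of all genes lower and 32.1% higher (median 0.016), and 5 rose and 6 fell under each antibody against isotype, where 63.5% of all genes were called for anti-G-CSFR and 60.3% for anti-C5 (medians −0.080 for anti-G-CSFR and −0.025 for anti-C5). With library totals alone 9 rose and 5 fell in isotype against sham, beside 5586 higher and 3095 lower of all 13124 genes. Under that scaling the share of the pathway called was above that of all genes. Of the 2 kinases that phosphorylate the cotransporters, Oxsr1 (OSR1) rose to 84.2, 112 and 126 CPM in isotype kidneys, against 64.1, 62.7 and 57.9 CPM in sham kidneys (0.80 ± 0.149, SE). Stk39 (SPAK) was at 41.8, 48.8 and 47.8 CPM in isotype kidneys and 45.6, 45.9 and 45.4 CPM in sham kidneys and was not called (0.016 ± 0.106, edgeR BH-adjusted p = 0.904). With library totals alone Stk39 was called lower under anti-G-CSFR and anti-C5 against isotype (−0.33 and −0.35). Klhl3, the adaptor through which WNK kinases are sent for degradation, fell to 3.83, 4.67 and 4.46 CPM in isotype kidneys, against 19.8, 25.5 and 21.4 CPM in sham kidneys (−2.36 ± 0.223). Nr3c2, the mineralocorticoid receptor, fell (−0.81 ± 0.122).

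Sgk1, a kinase induced by aldosterone and by stress, stood at 100.4, 248 and 287 CPM in isotype kidneys and 99.7, 86.4 and 108 CPM in sham kidneys. Its rise (1.11 ± 0.357, edgeR BH-adjusted p = 0.0173) was lost without kidney 2, 5 or 6 (0.0607, 0.059 and 0.0842), and kidney 4 was within the sham range. Under the antibodies Sgk1 was not called against isotype, and it was called lower without kidney 4 (0.0177 for anti-G-CSFR and 0.0396 for anti-C5). Ppp1r1b, which encodes DARPP-32, a phosphatase 1 inhibitor related to Ppp1r1a, fell by 3.91 ± 0.426 on the log2 scale. Cab39l, a scaffold protein that activates SPAK and OSR1, fell as well (−0.81 ± 0.121). Of the potassium-chloride cotransporter genes, Slc12a7 fell (−0.81 ± 0.104), while Slc12a4 rose to 73.3, 86.2 and 85.1 CPM in isotype kidneys, against 23.3, 22.4 and 20.9 CPM in sham kidneys (1.87 ± 0.210).

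Transcription factors of the loop and distal tubule mostly fell in isotype kidneys. Of 13 described, 9 fell and 1 rose in isotype against sham, beside 30.7% and 32.1% of all genes (median −1.02), and 7 rose and 1 fell under each antibody against isotype, a share called close to that of all genes (63.5% for anti-G-CSFR and 60.3% for anti-C5; medians 0.75 for anti-G-CSFR and 0.70 for anti-C5). The nuclear receptor gene Esrrg, the homeobox genes Emx1 and Prox1, the mitochondrial coactivator gene Ppargc1a and the loop factor gene Pou3f3 changed by −1.49 ± 0.0931, −2.06 ± 0.210, −1.76 ± 0.184, −1.42 ± 0.178 and −1.02 ± 0.140. The exception that rose was Pax8, an early tubule factor, at 127, 226 and 260.4 CPM in isotype kidneys and 71.1, 68.7 and 84.9 CPM in sham kidneys. Pax8 is named after its values were seen. Against sham, edgeR called none of the 13 under either antibody, and DESeq2 called 1 lower under anti-C5. Without overlap, 8 of 13 lay below sham and 0 above under anti-G-CSFR, beside 8.9% and 9.47% of all genes (median −0.27). Under anti-C5, 4 lay below and 0 above, beside 8.59% and 9.36% (median −0.27).

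By Pearson r of log2 CPM over the 12 kidneys, the genes of the table most like Slc12a1 were Csad (0.996), Dpp4 (0.996) and Mrnip (0.995), those most like Slc12a3 were Slc51a (0.975), Lrat (0.972) and Abcd4 (0.971), and those most like Wnk1 were Gcc2 (0.978), Rnf24 (0.976) and Mindy2 (0.968). These coefficients have no test; the points share libraries and scaling, and isotype kidneys lie apart from all others for the 3 genes compared. Csad, for example, stood at 308, 281 and 185 CPM under anti-G-CSFR, 304, 175 and 313 CPM under anti-C5, 35.5, 37.2 and 31.5 CPM in isotype kidneys and 367, 293 and 350 CPM in sham kidneys, with the same low places of kidneys 9 and 11 as Slc12a1.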

How the data were processed

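Per the submitters' processing notes, the tools the authors used were featureCounts, TopHat2 (2.1.0) and Bowtie2 (2.2.5), with the build GRCm38.p4. Per the labels' protocols these were single-end 100 bp reads from strand-specific libraries, and the labels name 1 flow cell and lane for all of them. The deposited table holds raw counts per Entrez gene. No source used here gives the annotation, the strand setting or any filter, but the third-highest CPM of every gene was at least 2.01, so low genes appear to have been removed before deposit. Reads of antisense genes overlapping Slc12a1, Umod, Cldn19 and Wnk4 may have been counted with them. Symbols came from RefSeq (13074 of 13124 identifiers matched), coordinates and exon lengths from GENCODE vM21.

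The test was that of edgeR 4.0.16 under R 4.3.3 (TMM, robust quasi-likelihood, 1 fit over 12 kidneys, 8 residual degrees of freedom), BH-adjusted over all genes, and 6 comparisons were made; SEs and 95% intervals derive from the test statistic. The procedure was tested on simulated data. Kidney numbers occur in 1 group each, so nothing was paired, and the chi-square per degree of freedom between pairs of replicates was 5.52 to 65.4, beyond counting noise. Isotype kidney 4 had 46.5 against kidney 5 and 48.8 against kidney 6, beside 5.52 between kidneys 5 and 6. The labels do not say that the kidneys of a group came from separate mice. If some shared a mouse, p-values measure in part the spread within a mouse. Alternatives were other scalings and filters, DESeq2 1.42.0, limma-voom (limma 3.58.1), a fit without the robust option, only the 6 compared kidneys, each kidney left out, and kidneys 9 and 11 left out together. The genes, lists and tests were chosen with earlier results of these data known. All 10 genes were reported; from the transport, WNK pathway and transcription factor lists the text names the 5 called genes of each with the smallest p in isotype against sham, further genes picked by role, and Cldn3, Cldn14 and Pax8, chosen after their values were seen (3 listed genes are not reported here, and list counts leave them out), and for Slc12a1, Slc12a3 and Wnk1 the 3 most similar genes. SD is over 3 kidneys.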

Additional observations from a re-analysis of the deposited data

How the results depend on the processing

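In the 3 comparisons that involve isotype kidneys, 640 of 660 values of the 10 genes over 22 alternatives kept their direction and their side of the threshold, 15 lost the call (14 of Wnk4 and 1 of Wnk1) and 5 turned sign, all of Umod, which was never called. The count of the 10 called was 8 or 9 for isotype against sham and for anti-G-CSFR against isotype and 7 to 9 for anti-C5 against isotype. Library totals alone moved the median of all genes from 0.028 to 0.23 in isotype against sham, from −0.022 to −0.23 in anti-G-CSFR against isotype and from −0.014 to −0.19 in anti-C5 against isotype. It gave 5586 higher and 3095 lower calls for isotype against sham, beside 4207 and 4034, then 3107 higher and 5554 lower calls for anti-G-CSFR against isotype, beside 4137 and 4197, and 3106 and 5111 for anti-C5 against isotype, beside 4006 and 3913; every direction given here holds relative to TMM. In the other comparisons, where edgeR called no gene, DESeq2 called 1 (anti-G-CSFR against sham), 112 (anti-C5 against sham) and 2 (anti-G-CSFR against anti-C5), and a fit of the 6 kidneys compared called 43 for anti-G-CSFR against sham; the cause was not tested, and none of the 10 genes was among them. Small uncalled log2 changes crossed 0 under some alternatives, with the range over single kidneys left out in brackets. For isotype against sham, leaving out single kidneys turned Stk39 (−0.026 to 0.082). For anti-G-CSFR against isotype, leaving out single kidneys turned Umod (−0.12 to 0.17); with library totals alone Umod (−0.18) also turned. For anti-C5 against isotype, leaving out single kidneys turned Umod (−0.074 to 0.21) and Trpm6 (−0.30 to 0.26); with library totals alone Umod (−0.10) and Trpm6 (−0.12) also turned. For anti-G-CSFR against sham, leaving out single kidneys turned Slc12a3 (−0.056 to 0.17), Kcnj1 (−0.18 to 0.13), Cldn10 (−0.23 to 0.17), Ppp1r1a (−0.10 to 0.26), Wnk1 (−0.10 to 0.055) and Wnk4 (−0.072 to 0.075); with limma-voom Ppp1r1a (−0.0019), and without kidneys 9 and 11 together Kcnj1 (0.13), Cldn10 (0.17), Wnk1 (0.034) and Wnk4 (0.061) also turned. For anti-C5 against sham, leaving out single kidneys turned Slc12a3 (−0.26 to 0.022), Kcnj1 (−0.23 to 0.091), Cldn10 (−0.37 to 0.12), Cldn16 (−0.13 to 0.33), Ppp1r1a (−0.18 to 0.32) and Wnk4 (−0.21 to 0.047); with limma-voom Ppp1r1a (−0.0079), and without kidneys 9 and 11 together Kcnj1 (0.10), Cldn10 (0.13) and Wnk4 (0.039) also turned. For anti-G-CSFR against anti-C5, leaving out single kidneys turned Slc12a1 (−0.22 to 0.28), Kcnj1 (−0.16 to 0.24), Umod (−0.10 to 0.055), Cldn10 (−0.18 to 0.31), Cldn16 (−0.14 to 0.32), Cldn19 (−0.18 to 0.16), Ppp1r1a (−0.28 to 0.22) and Wnk4 (−0.053 to 0.19); with library totals alone Slc12a1 (−0.020), Cldn16 (−0.0095) and Wnk4 (−0.0047), and with limma-voom Cldn19 (0.016) and Ppp1r1a (0.0060), and without kidneys 9 and 11 together Slc12a1 (−0.0076) and Cldn16 (−0.094) also turned. Of 1776 values of the other named genes 1758 kept direction and call. No paired analysis was possible because the groups share no replicate numbers. With 3 kidneys a group, the intervals given above show which changes remain compatible with the data, and Cldn14 rests on 1 to 70 counts per kidney where it was seen.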
